A study of Mus musculus with 12 samples.

Results

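Immediate early genes are switched on within minutes of synaptic activity or growth factor signalling without new protein synthesis, and their transcripts are short-lived. Calcium and kinase signals reach promoter-bound CREB, SRF and MEF2 factors, and the induced proteins are mostly transcription factors that in turn set the expression of slower genes. Bdnf, the neurotrophin that signals through the TrkB receptor, is regulated by many of the same signals, and in cortex and hippocampus these transcripts are widely used as a record of recent neuronal activity.

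The 10 genes described here were chosen by symbol when earlier results of these data were known. They were matched to the Ensembl identifiers of the deposited tables. They were Fos, Fosb and Junb, which encode subunits of the AP-1 dimer, Egr1, Egr2 and Egr4, which encode zinc finger transcription factors, the PAS domain transcription factor Npas4, the orphan nuclear receptor Nr4a1, the synaptic protein Arc and Bdnf. All 10 were found among the 35697 genes listed for the first batch and the 55637 listed for the second, and all 10 passed the filter on low counts in both comparisons.

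Adult male wild-type C57BL/6J mice underwent controlled cortical impact (CCI), a calibrated blow to the exposed cortex that serves as a model of traumatic brain injury (TBI). Brain RNA of 3 sham mice, which had the surgery without the blow, and of 3 TBI mice at 7 days was sequenced in a batch of 2018. A batch of 2022 held 3 injured mice without the drug, called TBI control here, and 3 injured mice given zileuton, an inhibitor of 5-lipoxygenase, intraperitoneally at 10 mg per kg per day in corn oil. The labels call the TBI control mice only injured at 7 days, whereas the study describes the group compared with zileuton as vehicle-treated. For the zileuton mice the labels give 7 days in the titles but 7, 8 and 9 days in the source names. The tissue was bulk tissue from around the contusion, so fewer neurons and less RNA per neuron cannot be told apart.

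Total counts ran from 42929862 to 48684674 per library in 2018 and from 27845562 to 35453257 in 2022. Although the mice are described as male, every 2018 library held 856 to 1155 counts of the X inactivation transcript Xist beside 2518 to 3008 counts of the Y-linked Ddx3y, whereas Xist had 1 to 6 counts in the 2022 libraries. Xist ranged from 856 to 1047 counts in sham and from 913 to 1155 in TBI libraries, and its part in the results was not tested. Whether each 2018 library came from a single mouse cannot be told from the labels and these counts, so n counts libraries. The columns of the 2022 tables name the group but not the mouse, so these libraries are called replicate A, B and C in column order. The letters stand for no known pairing.

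The promoters of these genes are shown because most of the genes moved together. RefSeq promoter sequences (GRCm38.p6) were at hand for 8 of the 10 genes, all but Arc and Egr1, in 18 windows of 250 bases before a start site. In the GENCODE M21 annotation all 250 bases of the Npas4 window were exon. Exon also covered 61, 24 and 1 bases of 3 Egr2 windows and 6 bases of the Fosb window. The core of the cyclic AMP response element, TGACG on either strand, stood in at least 1 window of each of the 8 genes and in 10 of the 18 windows, against 17.8% of 32851 windows of all genes. The full palindrome TGACGTCA, which holds the core, was in none of the 18 windows (1.55% of all windows). The CArG box, the binding sequence of SRF, was in 4 windows, all of Egr2 (1.47% of all windows), and an EGR site, GCGTGGGCG or GCGGGGGCG on either strand, was in the windows of Fosb and Nr4a1 (3.06%). Of the 5 Egr2 windows 3 overlap and hold the same CArG box and the same CRE cores, so the 4 windows with a CArG box hold 2 separate boxes, and 3 of the 10 windows with a CRE core are 1 stretch. Bdnf had the most windows of the 8 genes, and only 1 of them, chr2:109692186-109692435, held a CRE core. The other Bdnf windows held none of these motifs. A match is a description of letters, and genes with several windows had more chances of one. Only these windows were searched, so a gene without a match may hold the motif elsewhere. The windows of Fos (chr12:85473640-85473889, plus strand), Egr2 (chr10:67537619-67537868, plus strand), Egr4 (chr6:85513590-85513839, minus strand), Nr4a1 (chr15:101266596-101266845, plus strand) and Bdnf (chr2:109692186-109692435, plus strand) follow, read 5′ to 3′ in the direction of the gene, with the matched motifs in capitals.
Fos: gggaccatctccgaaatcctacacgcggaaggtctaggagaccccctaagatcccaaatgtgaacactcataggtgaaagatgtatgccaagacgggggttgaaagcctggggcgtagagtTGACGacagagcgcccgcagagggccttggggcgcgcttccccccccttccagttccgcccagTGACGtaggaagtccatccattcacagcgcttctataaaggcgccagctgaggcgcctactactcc
Egr2: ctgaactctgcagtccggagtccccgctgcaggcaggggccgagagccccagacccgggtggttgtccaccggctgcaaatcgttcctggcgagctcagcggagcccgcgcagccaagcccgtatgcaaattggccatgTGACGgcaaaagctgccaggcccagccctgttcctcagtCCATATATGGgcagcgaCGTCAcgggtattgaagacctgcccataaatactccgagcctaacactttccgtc
Egr4: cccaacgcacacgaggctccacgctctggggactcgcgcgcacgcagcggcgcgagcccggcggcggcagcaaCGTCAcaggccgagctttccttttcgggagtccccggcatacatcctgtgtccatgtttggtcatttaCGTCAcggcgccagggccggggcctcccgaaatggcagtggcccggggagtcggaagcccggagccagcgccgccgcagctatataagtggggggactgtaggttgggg
Nr4a1: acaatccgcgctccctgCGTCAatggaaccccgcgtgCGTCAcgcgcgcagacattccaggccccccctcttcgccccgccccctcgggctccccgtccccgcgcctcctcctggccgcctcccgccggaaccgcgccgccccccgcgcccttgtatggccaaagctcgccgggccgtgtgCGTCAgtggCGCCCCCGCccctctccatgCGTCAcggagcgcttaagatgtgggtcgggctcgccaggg
Bdnf: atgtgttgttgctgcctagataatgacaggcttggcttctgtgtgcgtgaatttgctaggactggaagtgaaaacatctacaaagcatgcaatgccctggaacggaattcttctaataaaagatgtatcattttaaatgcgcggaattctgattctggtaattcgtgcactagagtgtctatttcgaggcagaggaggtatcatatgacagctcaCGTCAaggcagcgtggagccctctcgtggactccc

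The first question was how these genes stood at 7 days after injury. Of the 10 genes, 8 were lower in TBI than in sham mice (edgeR quasi-likelihood test, adjusted p under 0.05), and none was higher. Among all 19536 genes tested, 11.2% were lower by the same rule and 16.8% higher. The 8 were Npas4, Arc, Egr1, Egr2, Nr4a1, Egr4, Bdnf and Junb, whereas Fos and Fosb did not pass. The median log2 fold change was -0.78 for the 10 and 0.02 for all genes together. For 9 of the 10, all but Fosb, every TBI library lay below every sham library, as did 19.8% of all genes.

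Npas4, a transcription factor of neurons that responds selectively to calcium entry, had the largest fitted fall. Its CPM (counts scaled to a common library size, with TMM factors) were 19.2, 23.5 and 14.4 in the 3 sham libraries and 9.04, 6.18 and 5.48 in the 3 TBI libraries. The groups were well apart, and the TBI level was 36.3% of sham (log2 fold change -1.46 ± 0.23 SE, n = 3, edgeR adjusted p = 0.00194). Arc, which acts at excitatory synapses in the trafficking of glutamate receptors, had 249, 548 and 217 CPM in sham and 184, 111 and 127 CPM in TBI libraries. Sham replicate 2 was far above the other sham libraries, and the groups did not overlap (log2 fold change -1.26 ± 0.34 SE, n = 3, edgeR adjusted p = 0.0228). Without that library the Arc value was -0.75, still past the threshold, whereas the call was lost without TBI replicate 2 (-1.12, adjusted p = 0.0608) or TBI replicate 3 (-1.19, adjusted p = 0.0678).

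Among the Egr factors, Egr1 had 270, 382 and 275 CPM in sham and 158, 142 and 190 CPM in TBI libraries. It fell to 52.9% of sham (log2 fold change -0.92 ± 0.15 SE, n = 3, edgeR adjusted p = 0.00264). Egr4 had 34.1, 49.1 and 44.0 CPM in sham and 23.4, 24.8 and 30.9 CPM in TBI libraries. Its fall was smaller (log2 fold change -0.69 ± 0.15 SE, n = 3, edgeR adjusted p = 0.0103). Egr2 had 10.5, 22.05 and 12.1 CPM in sham and 7.42, 6.42 and 9.82 CPM in TBI libraries. The lowest sham and the highest TBI library of Egr2 nearly met, and its call (log2 fold change -0.92 ± 0.28 SE, n = 3, edgeR adjusted p = 0.0393) was lost without sham replicate 2 (-0.55, adjusted p = 0.0917), TBI replicate 1 (-0.88, adjusted p = 0.0910) or TBI replicate 2 (-0.79, adjusted p = 0.0992).

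Nr4a1, an orphan nuclear receptor, had the smallest adjusted p of the 10. It stood at 125, 163 and 129 CPM in sham and at 78.2, 68.7 and 79.3 CPM in TBI libraries, with a wide gap between the groups (log2 fold change -0.88 ± 0.11 SE, n = 3, edgeR adjusted p = 0.000623). Bdnf had 37.8, 30.4 and 27.0 CPM in sham and 23.4, 16.7 and 22.8 CPM in TBI libraries. It fell to 66.1% of sham (log2 fold change -0.60 ± 0.16 SE, n = 3, edgeR adjusted p = 0.0236), and the call was lost without sham replicate 1 (-0.46, adjusted p = 0.0763) or TBI replicate 2 (-0.46, adjusted p = 0.0526). The Bdnf gene overlaps Gm45346 on the opposite strand, and whether counting used the strand is not given in the sources used here.

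Among the 10 genes, the AP-1 genes Junb, Fosb and Fos had the smallest fitted falls. The AP-1 gene Jun, outside the 10, was higher in TBI mice (log2 fold change 0.56, edgeR adjusted p = 0.0298). Jund (0.04) and Fosl2 (-0.10) were not called. Junb had 86.4, 117 and 86.5 CPM in sham and 63.0, 67.8 and 75.6 CPM in TBI libraries (log2 fold change -0.49 ± 0.13 SE, n = 3, edgeR adjusted p = 0.0212). Without TBI replicate 1 its adjusted p was 0.0619, and the gene overlaps Prdx2 on the opposite strand. Fos had 27.1, 46.6 and 24.2 CPM in sham and 20.5, 21.5 and 23.3 CPM in TBI libraries. All TBI values of Fos were below all sham values, but the gap was narrow and the adjusted p was 0.0796 (log2 fold change -0.59 ± 0.22 SE, n = 3, edgeR). Without sham replicate 3 Fos passed the threshold (-0.78, adjusted p = 0.0335). Fosb had 10.9, 21.7 and 13.0 CPM in sham and 7.26, 10.7 and 13.9 CPM in TBI libraries, and its groups overlapped (log2 fold change -0.52 ± 0.29 SE, n = 3, edgeR adjusted p = 0.223). The 95% interval for Fosb, unadjusted for the number of genes, ran from -1.18 to 0.14 on the log2 scale, which includes 0.

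**Figure D1:**
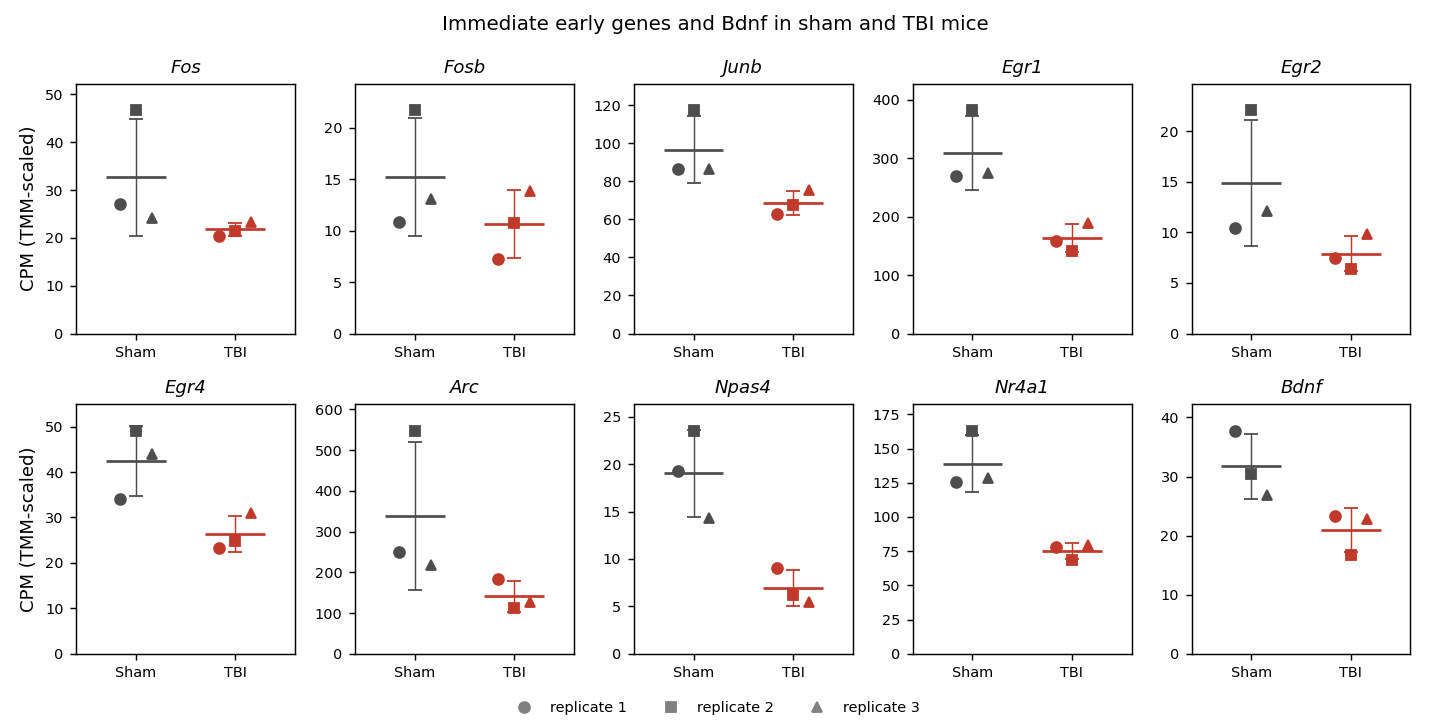
Each panel plots the CPM of 1 gene in the 3 sham (grey) and 3 TBI (red) libraries, with symbols for the replicates, a bar for the mean and whiskers for the SD. The TBI points lie below the sham points in every panel except Fosb, and sham replicate 2 (square) is the highest point in 9 of the 10 panels.

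Per length of transcript, the genes spanned a wide range of levels in sham tissue. The mean FPKM (a level per transcript length and library size) in sham was 109 for Arc, 67.7 for Egr1, 41.3 for Junb, 38.9 for Nr4a1, 19.4 for Egr4, 13.6 for Fos, 5.00 for Bdnf, 4.52 for Npas4, 4.30 for Egr2 and 2.39 for Fosb. Neighbours whose sham libraries overlapped were Arc and Egr1, Junb and Nr4a1, Egr4 and Fos, and each successive pair from Bdnf to Fosb. In TBI mice the mean FPKM was 46.8 for Arc, 37.0 for Egr1 and 30.4 for Junb, and these neighbours overlapped. Npas4 moved from rank 8 to rank 10 with a mean of 1.70 FPKM, but its TBI libraries overlapped those of Fosb.

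Other genes of the same signalling pathways did not move as a block. Of 24 other inducible transcription factors tested, 5 were lower and 8 higher in TBI mice, and the median of their log2 values was 0.02. Egr3, a further Egr factor, fell by 0.67 on the log2 scale (edgeR adjusted p = 0.00559), and Klf10, a factor induced by TGF-beta, fell by 0.78 (adjusted p = 0.000724). In contrast, the stress-responsive Atf3 rose by 2.82 and Cebpd, a factor of acute inflammation, rose by 2.42. Inducible genes thus appeared in both directions in the same libraries.

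Of 24 inducible effector genes of neurons tested, 7 fell and 1 rose (median log2 fold change -0.31). Among those that fell were Pcsk1, a prohormone convertase (-0.85), the secreted neuropeptide precursor Vgf (-0.67), and Rgs4, which dampens G protein signalling (-0.51). Of the 20 kinase feedback genes, 10 fell and 4 rose (median -0.34). Spred2, an inhibitor of the Ras pathway, was lower (-0.54) and Zfp36, which promotes decay of AU-rich transcripts, was higher (1.79). Of 34 upstream kinases and factors, 12 fell and 4 rose (median -0.24). The calcium-dependent kinases Camkk2 (-0.81) and Camk4 (-0.80) fell, and Rps6ka1, a kinase downstream of ERK, rose (1.57).

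Among the 16 neurotrophins and receptors, to which Bdnf belongs by function, 4 fell and 1 rose. Ntrk3, the receptor of neurotrophin-3, fell (-0.52), as did Sort1, a sorting receptor of pro-neurotrophins (-0.40), and Furin, a protease that cleaves them, rose (0.40). Ntrk2, which encodes TrkB, was not called (log2 fold change 0.19 ± 0.08 SE, n = 3, edgeR adjusted p = 0.136).

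Markers of cell types moved between the same groups. Of 15 neuron markers 10 were lower in TBI mice and none higher (median log2 fold change -0.35), and their summed level was 11269 to 12051 CPM in sham and 7555 to 9326 CPM in TBI libraries. Markers of the upper layers of cortex were lower for 4 of 8 genes (median -0.46) and those of the deep layers for 1 of 8 (median -0.17). Hippocampal markers were higher for 2 of 9 genes and thalamic markers for 4 of 7. The summed hippocampal level was 185 to 188 CPM in sham libraries and 393, 311 and 188 CPM in TBI replicates 1, 2 and 3. All 15 markers of microglia and macrophages were higher (median 3.03), with a summed level of 401 to 477 CPM in sham and 3023 to 4713 CPM in TBI libraries. Astrocyte markers were higher for 8 of 10 genes, oligodendrocyte markers for 8 of 12 and endothelial markers for 7 of 10. No striatal marker was called, but the summed striatal level differed widely within groups. In sham replicates 1, 2 and 3 it was 915, 855 and 1622 CPM. In TBI replicates 1, 2 and 3 it was 519, 1953 and 598 CPM. TBI replicate 2 also had the highest summed thalamic level of the TBI libraries (312 CPM, against 166 and 157 CPM). Markers of excitatory neurons were lower for 3 of 10 genes and those of inhibitory neurons for 4 of 10. The blood list, 4 globin genes and the heme synthesis gene Alas2, was lower for 3 of 5 genes and higher for none (median -0.77), with a summed level of 151 to 244 CPM in sham and 89.3 to 141 CPM in TBI libraries. The part of the regions, the glial cells, the vessels and the blood in the result was not tested.

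The neuron markers allowed a direct comparison, added after the values were seen, in which counts were scaled to the summed counts of the 15 neuron markers. On this scale the median of all genes shifted upward by 0.44, and the median of the neuron markers was 0.09. Of the 10 genes 4 were lower, against 0.619% of all genes. That share of all genes was 11.2% before this scaling, so the upward shift lowered it too. The 4 were Npas4 (-1.03, adjusted p = 0.00318), Arc (-0.85, adjusted p = 0.0324), Egr1 (-0.49, adjusted p = 0.0228) and Nr4a1 (-0.45, adjusted p = 0.0159). Per unit of neuron marker RNA these genes were thus lower, whereas Egr2 (-0.49, adjusted p = 0.157), Egr4 (-0.25, adjusted p = 0.269), Bdnf (-0.17, adjusted p = 0.364) and Junb (-0.05, adjusted p = 0.815) no longer passed.

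**Figure D2:**
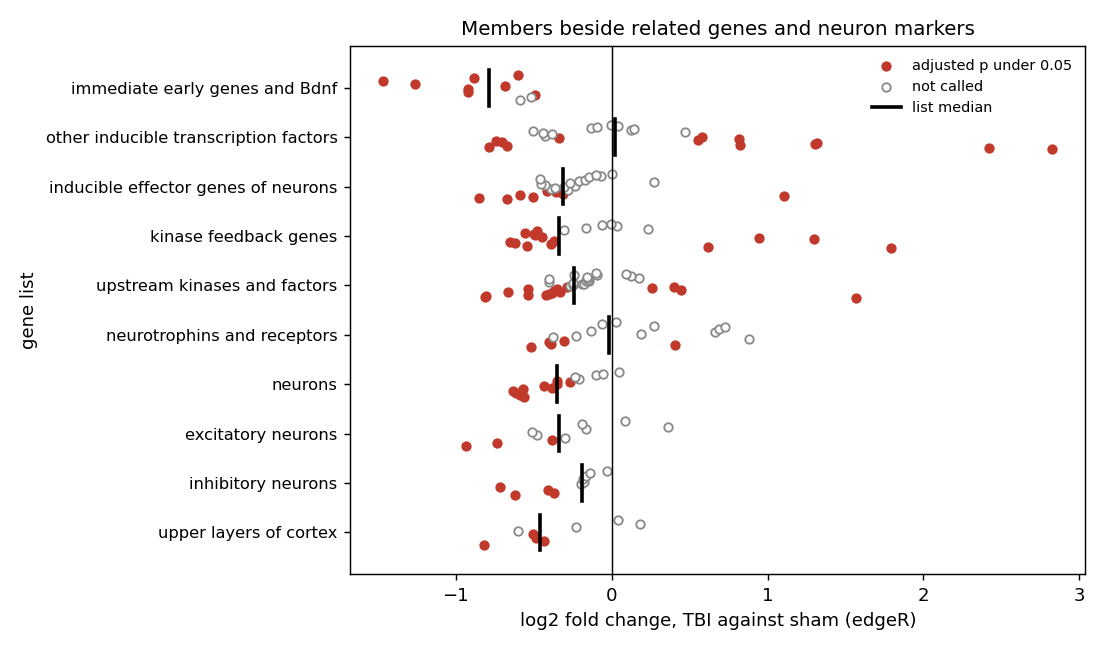
Each point is the log2 fold change of 1 gene in TBI against sham mice (x axis), by gene list (y axis), filled where the adjusted p was under 0.05, with a black bar at the list median. The immediate early genes and Bdnf have a median of -0.78, against -0.35 for the neuron markers and 0.02 for the other inducible transcription factors.

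The libraries of 1 group differed more in these genes than in most others. The median coefficient of variation of the 10 genes was 22.3% among sham libraries and 16.5% among TBI libraries, against 7.11% and 8.40% for the 12260 genes with a mean of at least 5 CPM. Among the 2022 libraries it was 37.9% in TBI control and 18.4% in zileuton mice, against 8.66% and 7.48% for 12304 genes. Single libraries carried much of this spread. Sham replicate 2 was the highest sham library for 9 of the 10 genes, all but Bdnf. TBI control replicate A was the highest of its group for 9 genes and replicate B the lowest for 9.

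The neuron markers and the blood markers compared differently with this spread. Sham replicate 2 had the lowest summed neuron marker level of the sham libraries (11269 CPM). TBI control replicate B had the highest of its group (9133 CPM, against 9094 CPM in replicate A and 7949 CPM in replicate C). In the TBI libraries the neuron markers were 9326, 7555 and 8834 CPM, with replicate 2 lowest as for the summed 10 genes. In the zileuton libraries they were 8102, 8762 and 9132 CPM, the same order as the summed 10 genes. TBI control replicate A had the lowest summed level of microglial markers (2402 CPM, against 3786 and 4789 CPM in replicates B and C) and of oligodendrocyte markers (4621 CPM, against 8197 and 10069 CPM). The summed blood markers had the same order of libraries as the summed 10 genes in 3 of the 4 groups. They were 213, 244 and 151 CPM in the sham libraries, where the 10 genes summed to 870, 1404 and 842 CPM. In TBI control replicates A, B and C they were 342, 216 and 283 CPM, and the 10 genes summed to 514, 236 and 410 CPM. In the TBI libraries the blood markers were 117, 89.3 and 141 CPM beside 575, 476 and 578 CPM, whereas in zileuton libraries (195, 206 and 191 CPM beside 435, 477 and 578 CPM) the order differed. The part of these cells and of blood in the spread was not tested.

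Within groups, the genes varied with each other to different degrees. Pearson's r over the 12 libraries, on log2 CPM centred on the group means, was 0.99 for Egr1 with Egr2 and 0.94 for Junb with Egr4, and Arc and Fos had an r of 0.91. Against the mean profile of the other 9 genes, Fos had an r of 0.92, Arc 0.90, Egr2 0.85, Egr1 0.85 and Nr4a1 0.81, while Npas4 had 0.66, Junb 0.58, Bdnf 0.51, Egr4 0.46 and Fosb 0.41. Some of these differed between the batches, each of 6 libraries. In 2018 and 2022 respectively, r was 0.05 and 0.77 for Bdnf, 0.34 and 0.92 for Npas4, and 0.90 and 0.48 for Junb. Junb and Egr4 also have the highest GC content of the 10 transcripts (62.6% and 68.2%). The points share libraries and scaling, so these values are descriptions only.

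Over 16516 genes, those most like the mean profile of the 10 were Srsf10, a splicing regulator (r = 0.98), the demethylase homologue Alkbh6 (r = 0.96), Gm37127 (r = 0.95), Rnps1, a component of the exon junction complex (r = 0.93), the synaptic organiser Cbln4 (r = 0.93), A630089N07Rik (r = 0.93), 2900052N01Rik (r = 0.93), the RNA-binding protein gene Rbm43 (r = 0.92), Spry4, a feedback inhibitor of receptor tyrosine kinase signalling (r = 0.92), and the small Maf factor Mafg (r = 0.91), each over 12 libraries.

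**Figure D3:**
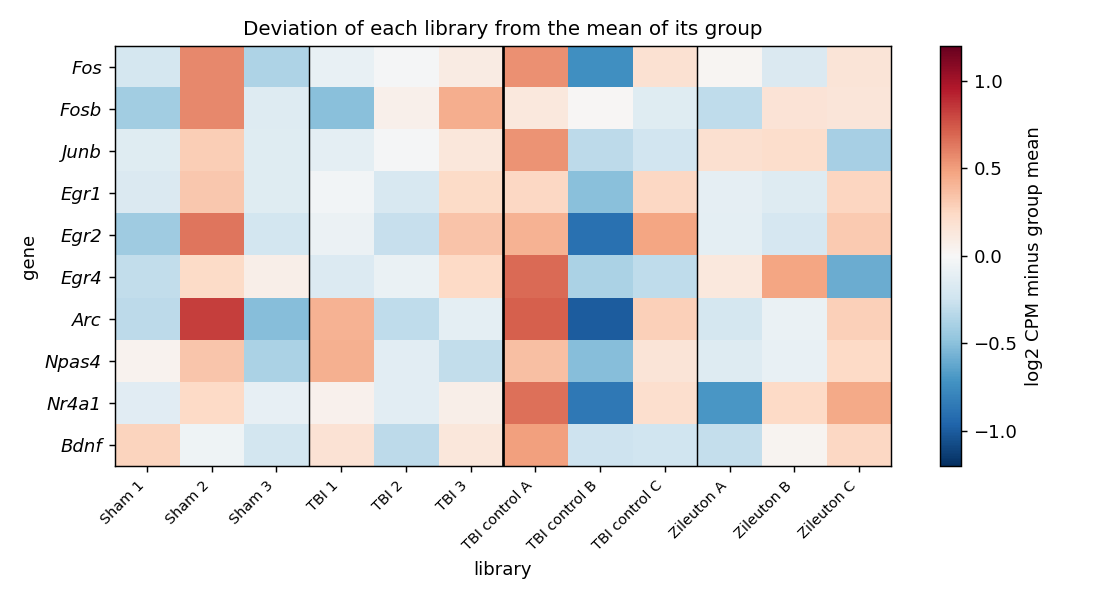
The colour gives the log2 CPM of each gene (rows) in each library (columns) minus the mean of its group, red above and blue below. The column of sham replicate 2 is red for 9 of the 10 genes, and that of TBI control replicate B is lowest in its group for 9.

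The second question was whether zileuton altered these genes in injured mice. None of the 10 was called by edgeR at an adjusted p under 0.05, as for 0% of the 17363 genes tested, whose smallest adjusted p was 0.186. At an unadjusted p under 0.05 there was 1 of the 10, Npas4, against 6.83% of all genes. DESeq2 called 28 genes in all, edgeR without a filter 4, and limma on TPM 4 with a pseudocount of 1, 5 with 0.1 and 0 without a filter, and none of them was among the 10. Fitted values were above 0 for 6 genes and below 0 for 4, the median log2 value of the 10 being 0.32 and that of all genes 0.00. Every zileuton library was above every TBI control library for Egr1, Egr2 and Npas4, and 6.51% of all genes had this order.

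Npas4 had 5.18, 2.83 and 4.49 CPM in TBI control and 5.72, 5.97 and 7.53 CPM in zileuton libraries. All zileuton values were higher, but the difference did not pass the adjustment (log2 fold change 0.62 ± 0.24 SE, n = 3, edgeR adjusted p = 0.713). Egr1 had 159, 94.5 and 158 CPM in TBI control and 166, 160 and 213 CPM in zileuton libraries. The lowest zileuton library of Egr1 barely exceeded the highest TBI control library (log2 fold change 0.39 ± 0.20 SE, n = 3, edgeR adjusted p = 0.713). Egr2 had 4.63, 1.86 and 4.81 CPM in TBI control and 5.26, 4.96 and 7.08 CPM in zileuton libraries (log2 fold change 0.62 ± 0.34 SE, n = 3, edgeR adjusted p = 0.721).

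Arc had 172, 52.2 and 127 CPM in TBI control and 142, 155 and 200 CPM in zileuton libraries, and the groups overlapped (log2 fold change 0.50 ± 0.36 SE, n = 3, edgeR adjusted p = 0.760). Nr4a1 had 55.0, 19.2 and 40.0 CPM in TBI control and 34.1, 65.3 and 75.8 CPM in zileuton libraries, with a wide spread in both groups (log2 fold change 0.62 ± 0.39 SE, n = 3, edgeR adjusted p = 0.735). The 95% interval for Nr4a1 ran from -0.27 to 1.52 on the log2 scale and that for Arc from -0.33 to 1.34, so a rise of more than 2-fold was inside both. Without TBI control replicate B, the lowest library for 9 of the 10 genes and the one with the most counts, the values were 0.15 for Arc, 0.30 for Nr4a1, 0.40 for Npas4, 0.18 for Egr1 and 0.29 for Egr2, and the median of the 10 genes was 0.05.

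Bdnf had 13.7, 8.15 and 8.20 CPM in TBI control and 7.96, 9.93 and 11.5 CPM in zileuton libraries, and the groups overlapped. Its fitted difference was -0.03, with a 95% interval from -0.56 to 0.50 (log2). Junb (-0.28, interval -0.85 to 0.29), Egr4 (-0.10, -0.90 to 0.71), Fosb (-0.10, -0.47 to 0.26) and Fos (0.25, -0.39 to 0.89) likewise had intervals that included 0. Zileuton replicate C was the lowest of its group for Junb and Egr4 and the highest for 7 of the 10 genes.

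**Figure D4:**
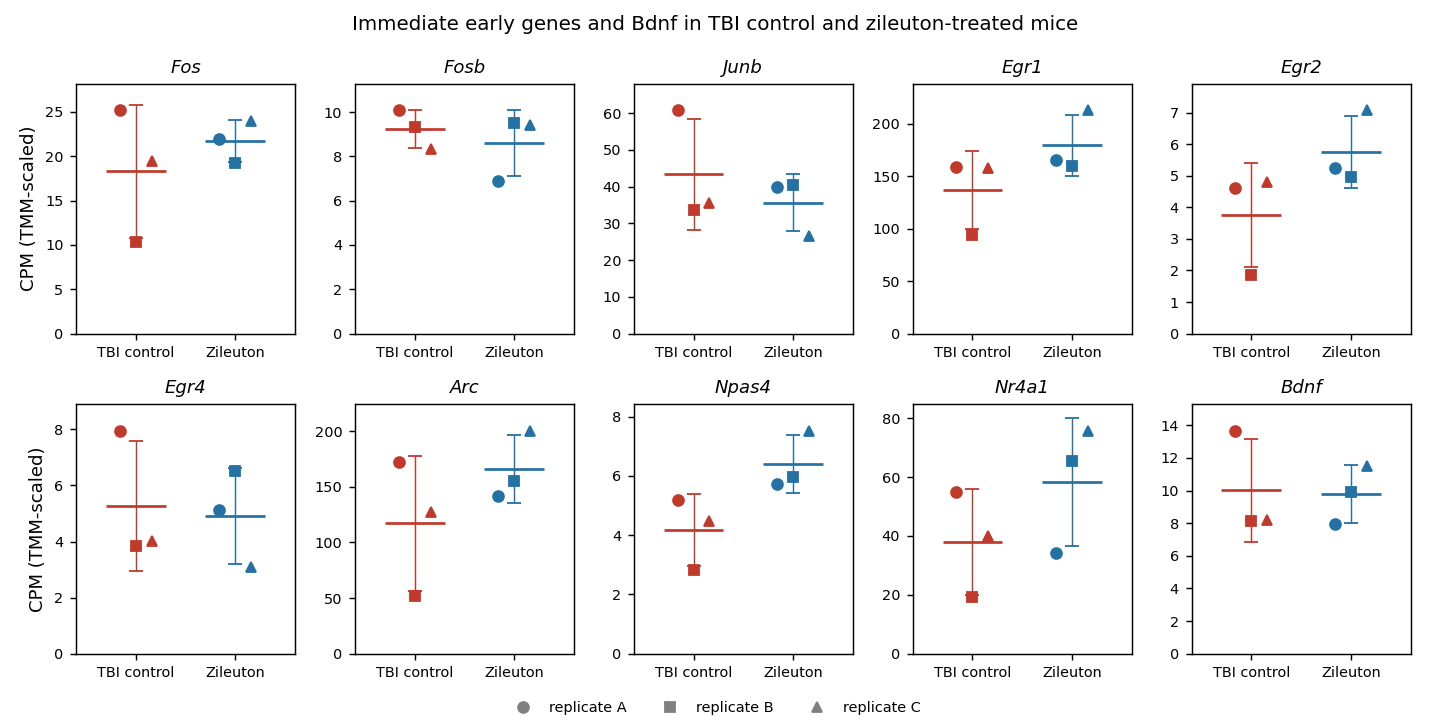
Each panel plots the CPM of 1 gene in the 3 TBI control (red) and 3 zileuton (blue) libraries, with symbols for replicates A, B and C, a bar for the mean and whiskers for the SD. TBI control replicate B (square) is the lowest red point in 9 of the 10 panels, and the groups are apart only for Egr1, Egr2 and Npas4.

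None of the related genes was called in this comparison either. By edgeR the count was 0 of 24 other inducible transcription factors, 0 of 24 effector genes, 0 of 20 kinase feedback genes, 0 of 34 upstream kinases and factors and 0 of 14 neurotrophins and receptors. It was also 0 under each alternative fit, DESeq2 and limma included. Unadjusted p-values under 0.05 numbered 3, 3, 0, 3 and 3. The smallest belonged to Shc3, a neuronal adaptor of Trk receptors (log2 fold change 0.61), Camkk2 (0.33) and the potassium channel gene Kcnj2 (0.48). The summed neuron marker level was 7949 to 9133 CPM in TBI control and 8102 to 9132 CPM in zileuton libraries. No marker of any cell type or region was called by edgeR, but several lists leaned one way. Fitted values were above 0 for 8 of 8 striatal markers (median log2 fold change 0.32, summed level 1467 to 1921 CPM in TBI control and 1368 to 2515 CPM in zileuton libraries) and for 11 of 12 oligodendrocyte markers (median 0.24). They were below 0 for 12 of 15 markers of microglia and macrophages (median -0.25) and for 5 of 5 blood markers (median -0.52), of which 4 had an unadjusted p under 0.05. The summed blood level was 216 to 342 CPM in TBI control and 191 to 206 CPM in zileuton libraries. The part of these tissues in the values of the 10 genes was not tested.

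The comparisons were made in separate batches with separate animals, and the TBI and TBI control groups were not compared. Side by side, the fitted log2 values of Npas4 were -1.46 after TBI and 0.62 with zileuton, those of Arc -1.26 and 0.50, those of Egr1 -0.92 and 0.39, those of Egr2 -0.92 and 0.62, those of Nr4a1 -0.88 and 0.62, and those of Fos -0.59 and 0.25. Both values were below 0 for Egr4 (-0.69 and -0.10), Bdnf (-0.60 and -0.03), Fosb (-0.52 and -0.10) and Junb (-0.49 and -0.28). No zileuton value passed the adjustment, and without TBI control replicate B the median of the 10 genes was 0.05 in place of 0.32. Whether the values differ between the batches was not tested.

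**Figure D5:**
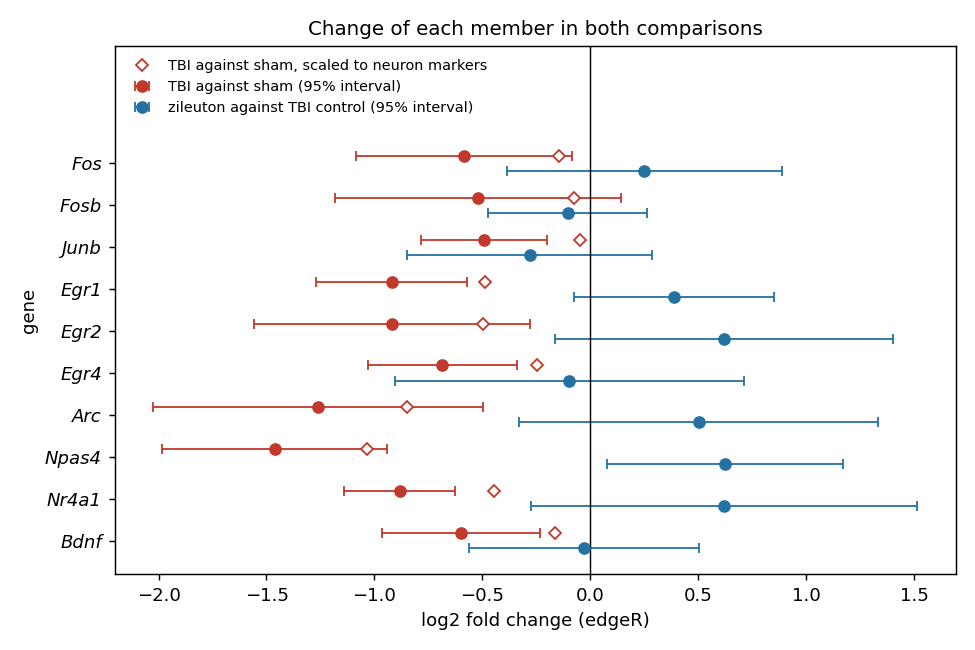
Points are the edgeR log2 fold changes (x axis) of the 10 genes (y axis) in TBI against sham (red) and in zileuton against TBI control (blue), with 95% intervals, and open diamonds are the TBI values scaled to neuron markers. The red intervals exclude 0 for every gene but Fosb, and the blue intervals include 0 for every gene but Npas4.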

How the data were processed

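Poly(A) RNA of 12 mouse brain samples was sequenced as read pairs, 3 in each of 4 groups taken from the labels. For the 2018 batch (sham, TBI) the authors deposited raw counts per gene and FPKM, and for the 2022 batch (TBI control, zileuton) the authors deposited estimated counts, of which 13.7% were not whole, and TPM. The submitters' processing notes name HISAT2, featureCounts, Subread, DESeq2 and the build GRCm39, without versions or roles. In the 2018 batch 62.3% to 64.4% of low counts were even, and both reads of a pair may have been counted. Every column with values was mapped to a sample or a group.

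Counts, rounded to whole numbers in the 2022 batch, were tested in each batch separately with R 4.3.3 and edgeR 4.0.16 (TMM factors, filterByExpr, glmQLFit and glmQLFTest), with p-values adjusted by Benjamini and Hochberg over all genes tested and a threshold of 0.05. The SE is the log2 fold change divided by the square root of the F statistic. CPM are edgeR values on TMM-scaled totals. Alternatives used DESeq2 1.42.0, limma 3.58.1 on log2(FPKM or TPM + pseudocount), and the study's two-sided equal-variance test, with p-values adjusted here although the study used them unadjusted. The code was tested on simulated data. With gene-wise dispersions the share of false calls was above the threshold in both comparisons, and with trended dispersions, tried after that was seen, it was slightly above it for TBI and below it for zileuton, so calls close to the threshold are the least firm. Each group had 3 libraries. The edgeR p-values weigh the difference between groups against the spread between libraries, an estimate that draws on all genes tested.

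The 10 genes and the 5 pathway and 13 marker lists were chosen with earlier results of these data known. Named were all 10 genes, up to 3 genes of highest mean CPM and up to 3 of smallest p from each list, and the 10 genes most like the mean profile. Jun, Jund and Fosl2 were named besides, as further AP-1 genes. Motifs were searched in RefSeq promoters (GRCm38.p6), and overlapping genes were taken from GENCODE M21 on GRCm38, which is not the authors' build. Plots were made in matplotlib 3.10.9 under Python 3.11.15.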

Additional observations from a re-analysis of the deposited data

How the results depend on the processing

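In TBI against sham mice, 8 of the 10 genes were called lower, as were 2193 of all 19536 genes. Of the 10 genes, 8 were called with DESeq2's size factors, library totals, at least 10 counts in every library and counts divided by 2. Lower calls over all genes in these fits were 2494 and 1715 of 19536, 2267 of 17287 and 2402 of 17691. The count was 9 with DESeq2, without a filter and after removal of GC and length trends. Over all genes it was 2793 of 19536, 2267 of 33230 and 2232 of 19479. With a robust fit 6 of the 10 were called (2237 of 19536 genes lower). The count was 4 with limma and a pseudocount of 1 or 0.1 (1432 and 1199 of 15873 genes lower). It was 3 with limma and no filter (1264 of 33230). With an equal-variance test on FPKM it was 0 after adjustment (864 of 15873 genes lower). At an unadjusted p under 0.05 in that test, the threshold the study used, it was 4, beside 5832 of 15873 genes in either direction. Scaled to neuron markers it was 4 (121 of 19536 genes lower). Leaving out 1 library gave 5 to 9, with 5 without TBI replicate 2. Over all genes these fits called 1446 to 1964 lower, of 20083 to 20256 tested. Npas4, Nr4a1, Egr1 and Egr4 were called without each library in turn. All 10 genes kept a negative sign under every alternative run, and the cause of the lost calls was not tested. With the replicate block the count was 6 (1637 of 19536 genes lower), Egr2 (adjusted p = 0.0830) and Arc (adjusted p = 0.0543) being lost. Libraries of the same number did not deviate together (r = -0.02, -0.09 and -0.03), and those of different numbers had r from -0.10 to 0.13. The labels do not say whether the number pairs the libraries, and these values cannot settle it. Genes called in the related lists and the neuron markers were counted by list, direction and alternative fit. Of these 240 counts, 64 moved by over 1.5 times or to or from 0. GC and length, neuron marker scaling and division by 2 were chosen after seeing the data.

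In zileuton against TBI control, 0 of the 10 genes were called under every alternative, the block by column number included. Values near 0 turned positive for Fosb with limma (0.0033 with a pseudocount of 1, with and without the filter, and 0.0034 with 0.1), the equal-variance test (0.0070) and without zileuton replicate A (0.034). Bdnf turned positive with limma (0.038, 0.052 and 0.038), the equal-variance test (0.015), the replicate block (0.00049), trends removed (0.019), without TBI control replicate A (0.26) and without zileuton replicate A (0.10). Without TBI control replicate A, Junb was 0.043 and Egr4 0.32. Egr4 was 0.15 without zileuton replicate C, and Fos was -0.038 without TBI control replicate B. Over the fits that each left out 1 library, the range was -0.038 to 0.55 for Fos, -0.18 to 0.034 for Fosb, -0.43 to 0.043 for Junb, -0.35 to 0.32 for Egr4 and -0.16 to 0.26 for Bdnf. Across genes, the log2 fold change of this comparison had a Spearman correlation of 0.34 with transcript length, where genes are not independent replicates. With 3 libraries a group and the spread seen here, the 95% intervals of most of the 10 genes were over 0.9 wide on the log2 scale.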
